A study of Homo sapiens with 8 samples.

Results

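The genes described here build ribosomes: 42 were listed by symbol, each known to act in ribosomal RNA synthesis, in the processing and modification of that RNA, or in the assembly of the ribosomal subunits. A gene was measured where a probe set of the array was annotated to its symbol alone, and 36 of the 42 were, against 19775 genes in all. NOP56, DKC1, BOP1, GNL3, DDX18 and EBNA1BP2 were not analysed here. All 36 measured genes reached a scaled signal of 50 on at least 1 array, which 9675 genes of the whole array did. They were followed in HaCaT cells, an immortalised line of human epidermal keratinocytes, across TGF-beta3 treatment, expression of active or dominant negative HRAS, and knockdown of p53.

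Ribosome production starts in the nucleolus, where RNA polymerase I copies the ribosomal DNA into a long precursor RNA. Small nucleolar ribonucleoproteins (snoRNPs) guide its chemical modification, the small subunit processome folds and cleaves it, and separate sets of factors carry the 40S and 60S subunits to export. Growing cells devote much of their transcription to this pathway. Its genes are known targets of MYC, a growth-promoting transcription factor that TGF-beta is known to repress in keratinocytes, where TGF-beta halts the cell cycle.

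In 6 groups the cells received adenovirus for LacZ, which served as control, for HRAS G12V (RAS locked in its active state, caRAS in the series title) or for HRAS N116Y (a dominant negative form, dnRAS there), each left untreated or given 5 ng/ml TGF-beta3 for 24 h. For the remaining 2 groups a control siRNA or p53 siRNA was transfected, and no TGF-beta was given. HaCaT cells are known to carry mutated p53, so the siRNA does not act on the wild-type protein. Each of the 8 groups held 1 array, so no value has a replicate within its group. The sample titles and the label field on TGF-beta stimulation agree on the treatment of the 6 adenovirus samples, and the source name of each of these samples gives the opposite state; titles were followed, and every TGF-beta direction below rests on them.

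On each of the 8 arrays 28.0% to 29.9% of probe sets had a signal of 50 or more. All 10 keratinocyte markers with a probe set did (KRT5, KRT14 and DSP among them), and their summed signal was 31256 to 38492 without and 49906 to 60449 with TGF-beta3. Of 6 fibroblast markers 2 reached it (COL1A1, COL3A1), of 5 measured melanocyte markers 1 (MITF), of 5 leukocyte markers 1 (HLA-DRA, on the control siRNA array only) and of 5 endothelial markers 0; TYR, MLANA, PTPRC, PDGFRA and VWF were below 20 on every array. Actin's 3' probe set over its 5' one, a measure of RNA length, gave 1.16 to 1.39 on the adenovirus arrays and 3.68 and 4.01 on the siRNA arrays, so the siRNA arrays are compared only with each other. HRAS, read by 1 probe set, was 459 on the control siRNA array and 376.5 on the p53 siRNA array. Among the adenovirus arrays it was highest with LacZ, at 316 without and 287 with TGF-beta3. It read 109 and 86.1 on the arrays labelled HRAS G12V and 67.1 and 58.1 on those labelled HRAS N116Y. This goes against vectors that add HRAS RNA; whether the probe set covers the HRAS sequence of the vectors was not tested. G12V and N116Y below mean the arrays so labelled, and every direction between vectors rests on those labels.

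The ribosome biogenesis genes were broadly lower with TGF-beta3. Averaged over the 3 vectors, 21 of the 36 genes fell, 0 rose and 15 did not pass the test (limma, additive model of vector and treatment on the 6 adenovirus arrays, Benjamini-Hochberg adjusted p under 0.05 over 8982 genes). Among all 8982 genes 17.4% fell and 16.3% rose. The median log2 change of the 36 was -0.42, against -0.01 over all genes, and 35 of the 36 estimates were below 0. In 27 genes the treated array read lower than the untreated one with every vector, as in 31.7% of all genes, and in 25 all 3 treated arrays lay below all 3 untreated arrays, as in 22.2% of all genes. The number of calls moved with the arrays left out, among all genes too. It was 13 without either LacZ array or their pair (11.7% to 12.2% of all genes fell), 9 without the untreated G12V array (11.5%), 10 without the treated one or that pair (12.1%), and 24 without the N116Y pair (24.4%). The median of the 36 lay between -0.46 and -0.40 in these fits. Leaving out either array of a vector, or its pair, gives the same TGF-beta3 estimate, so these fits amount to 3 separate checks.

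**Figure D1:**
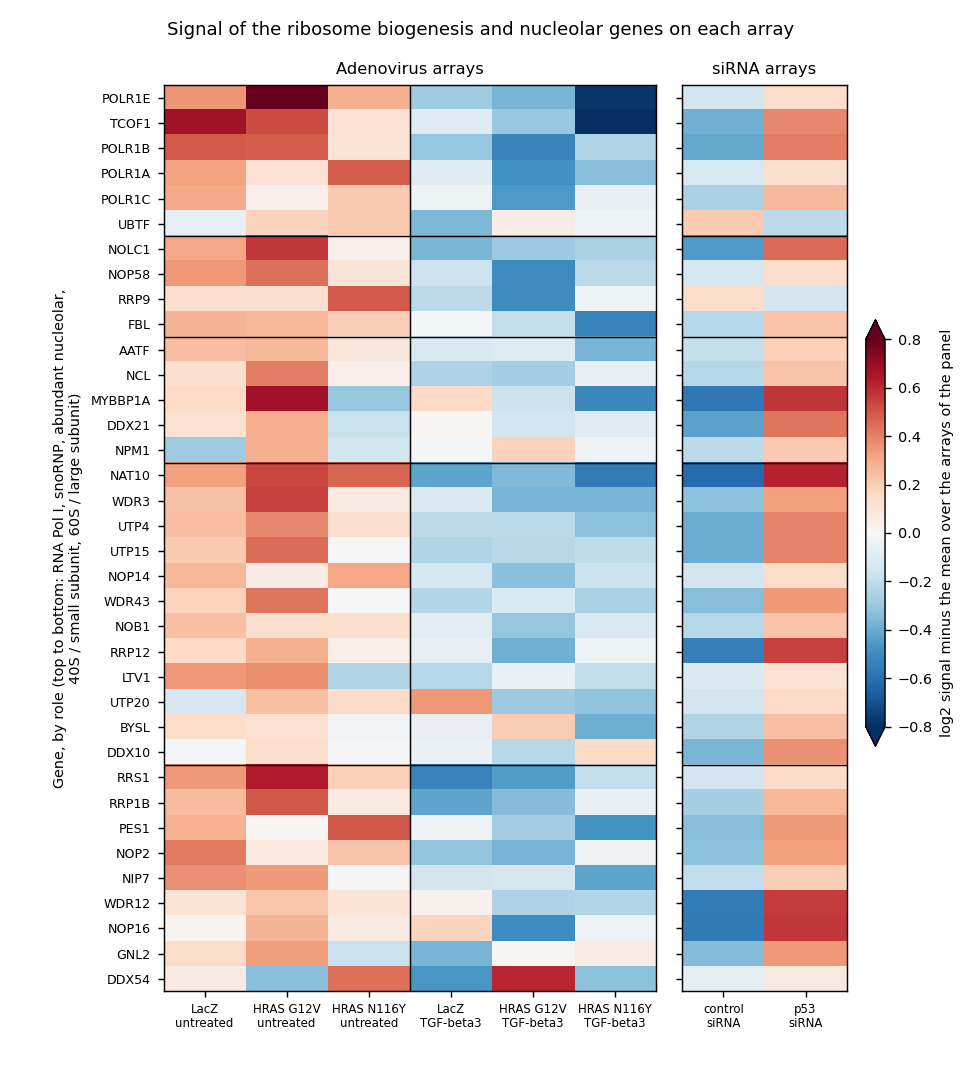
Signal of the 36 genes (rows, by role) on each array (columns), as log2 signal minus the gene's mean over the arrays of its panel; red is higher, blue is lower, and values beyond 0.8 take the end colours. The 3 untreated adenovirus columns are mostly red and the 3 TGF-beta3 columns mostly blue, and in the right panel the p53 siRNA column is redder than the control for all genes but UBTF and RRP9.

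Many of these genes carry an E-box, the 6 bases CACGTG that MYC and its partner MAX can bind, close to their transcription start. In RefSeq's promoter windows (GRCh38.p14, 250 bases before to 50 bases after each annotated start), 29 of the 36 genes could be matched and 16 of them (55.2%) held CACGTG, against 8.77% of 27305 genes in the same table. The motif reads the same on both strands. Of the genes that fell with TGF-beta3, 7 of 15 with a window (46.7%) held it, and of those that did not pass, 9 of 14 (64.3%). Of the genes that fell NAT10, UTP4, WDR43, FBL, PES1 and AATF are shown as examples, and of the others MYBBP1A, UTP20 and DDX54. The E-boxes of NOP2, which fell, and of RRP9, NOP14, LTV1, DDX21, BYSL and GNL2, which did not pass, are not shown. The examples therefore do not reflect the shares above. The E-box is in capitals with 10 bases on each side, 5' to 3' on the strand of the gene.
NAT10 (chr11:34105604-34105629, plus strand): tgcgcttgcgCACGTGctgtctacca
UTP4 (chr16:69132623-69132648, plus strand): agcgcgcgcgCACGTGgggccggggc
WDR43 (chr2:28894660-28894685, plus strand): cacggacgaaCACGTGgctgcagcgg
FBL (chr19:39846358-39846383, minus strand): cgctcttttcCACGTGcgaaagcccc
PES1 (chr22:30591882-30591907, minus strand): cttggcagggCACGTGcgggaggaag
AATF (chr17:36948787-36948812, plus strand): cagaagcggtCACGTGccttggcgcg
MYBBP1A (chr17:4555342-4555367, minus strand): ggccggagcaCACGTGtttcgtgttt
UTP20 (chr12:101280085-101280110, plus strand): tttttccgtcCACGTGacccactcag
DDX54 (chr12:113185524-113185549, minus strand): cagcggaggtCACGTGgtcaccgcac

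Counted from the annotated start, with negative positions upstream, the E-box began at -15 in NAT10, -16 in UTP4, 3 in WDR43, 6 in FBL and 13 in PES1. It began at 27 in MYBBP1A, -10 in UTP20 and -61 in DDX54. AATF, at -157, was the exception: the other 15 of the 16 lay between -61 and 35. Each gene held at most 1 E-box per window. The 250 bases before the start of NAT10, the gene with the smallest TGF-beta3 p-value of the 36 and the largest p53 siRNA ratio, show its E-box in capitals at the end of the stretch.
NAT10 upstream (chr11:34105379-34105628, plus strand): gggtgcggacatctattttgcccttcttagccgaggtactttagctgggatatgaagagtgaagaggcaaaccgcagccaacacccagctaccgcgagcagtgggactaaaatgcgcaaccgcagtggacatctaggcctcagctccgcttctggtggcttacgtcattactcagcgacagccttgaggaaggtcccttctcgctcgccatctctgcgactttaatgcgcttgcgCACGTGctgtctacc

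Other motifs were searched on both strands of the same windows. CCGGAAG, the core read by ETS factors, stood in 11 of the 29 windows (37.9%, against 12.2% of all genes). The palindromic NRF1 motif stood in 3 of the 29 genes (10.3%, against 1.52% of all genes). The E-box share was 35.7% among other small subunit genes, 22.9% among other large subunit genes and 6.45% among genes of the cytosolic ribosomal proteins themselves. These are matches of letters, and binding was not measured.

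The RNA polymerase I genes had the lowest median of the 5 roles: 5 of 6 fell, with a median log2 change of -0.67. This rank depends on the probe sets. When they were averaged, the median was -0.47 over 4 polymerase I genes, and that of the snoRNP genes was lower, -0.54. POLR1E, the PAF53 subunit that helps the polymerase engage its template, read 155, 210.1 and 147 untreated with LacZ, G12V and N116Y, and 99.6, 93.5 and 70.8 with TGF-beta3. All treated arrays were below all untreated ones, a 1.94-fold fall (log2 -0.95 ± 0.16 SE, adjusted p = 0.0013). TCOF1, the treacle protein that holds the polymerase and its factors at the ribosomal DNA, read 182, 164 and 124 untreated and 106, 92.6 and 61.1 treated. It fell 1.83-fold (log2 -0.87 ± 0.15 SE, adjusted p = 0.0016), and the N116Y arrays were the lowest in both states. POLR1B, the second largest subunit, read 608, 606 and 468 untreated and 349, 299.6 and 367 treated (log2 -0.72 ± 0.14 SE, adjusted p = 0.0026), again with no overlap.

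POLR1A, the largest subunit, fell by 0.61 on the log2 scale (adjusted p = 0.028) from signals of only 70.8 to 91.6 untreated. It passed in 0 of the 6 fits that left out 1 array. Its other probe sets had weaker ratios with LacZ, G12V and N116Y: -0.14, -0.22 and -0.33 for one, and 0.04, -0.43 and -0.03 for the other. POLR1C, which is shared with RNA polymerase III, read 425, 354 and 397 untreated and 336, 250.4 and 329 treated. It fell by 0.37 (adjusted p = 0.033). UBTF, the factor that opens ribosomal DNA for transcription, did not pass: it read 51.3, 60.9 and 62.1 untreated and 41.9, 55.9 and 52.4 treated, so the groups overlapped. That probe set was used because it was the brightest over all 8 arrays, and 3 dimmer UBTF probe sets had lower ratios with each vector, from -0.31 to -0.94.

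Among the snoRNP genes 3 of 4 fell, with a median of -0.54. NOLC1, the chaperone that moves snoRNPs to the nucleolus, read 2198, 2626 and 1826 untreated and 1377, 1450.0 and 1486 treated. The treated arrays lay close together and below all untreated ones (log2 -0.61 ± 0.13 SE, adjusted p = 0.0038). NOP58, a core protein of the box C/D snoRNPs that guide ribose methylation, read 1844, 1969 and 1560.4 untreated and 1294, 1026 and 1249 treated, a 1.51-fold fall (log2 -0.59 ± 0.13 SE, adjusted p = 0.0055). FBL, the fibrillarin methyltransferase of the same particles, read 1591, 1588 and 1515 untreated and 1312, 1157 and 911 treated, with the smallest signal on the treated N116Y array. It fell 1.41-fold (log2 -0.49 ± 0.12 SE, adjusted p = 0.0087). RRP9, a protein of the U3 snoRNP, had a like estimate but did not pass (log2 -0.50 ± 0.19 SE, adjusted p = 0.063); it was dim, at 69.1, 68.8 and 88.6 untreated and 54.5, 44.5 and 61.6 treated.

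The abundant nucleolar proteins had the median nearest to 0 of the 5 roles: 2 of 5 fell and the median was -0.35. With averaged probe sets it was -0.32, and that of the large subunit genes was nearer to 0, at -0.30. AATF, an RNA-binding protein of a nucleolar complex that aids 40S maturation, read 751, 757 and 675 untreated and 582, 589 and 489 treated. Its ratios were nearly alike with the 3 vectors (log2 -0.37, -0.36 and -0.47, adjusted p of the average 0.015). NCL, or nucleolin, a histone and RNA chaperone, read 4222, 5127 and 3972 untreated and 3259, 3195 and 3700.0 treated, and fell by 0.39 (adjusted p = 0.041). NCL passed in only 3 of 8 alternative processings.

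NPM1, or nucleophosmin, the scaffold of the outer nucleolar layer, was the single gene of the 36 with an estimate above 0. It read 6268, 9330.1 and 6868 untreated and 7535, 8654 and 7466 treated (log2 0.09 ± 0.13 SE, adjusted p = 0.60). Its untreated and treated signals overlapped widely. Its other 2 probe sets had ratios of 0.05 and 0.09 with LacZ, -0.22 and -0.26 with G12V, and -0.29 and -0.11 with N116Y. The averaged estimate was -0.16 under quantile normalisation and -0.05 when probe sets were averaged, neither past the threshold. MYBBP1A, a MYB-binding nucleolar repressor of RNA polymerase I, read 155, 221 and 113 untreated and 155, 123 and 97.1 treated, so that the drop lay almost wholly in the G12V pair (log2 ratio -0.84, against 0.00 with LacZ and -0.21 with N116Y; adjusted p of the average 0.15). Its second probe set was lower in each pair, at -0.38, -0.66 and -0.51. DDX21, a helicase that couples polymerase I transcription to processing, had a change of -0.15 (adjusted p = 0.37). Its second probe set was lower in each pair, at -0.17 with LacZ, -0.33 with G12V and -0.93 with N116Y.

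In the small subunit group 6 of 12 genes fell, with a median of -0.38. NAT10, which acetylates cytidines of 18S ribosomal RNA, read 283, 327 and 311 untreated and 168, 177 and 153 treated. Untreated arrays lay together well above the treated ones, and the 1.85-fold fall had the smallest p-value of the 36 genes (log2 -0.89 ± 0.13 SE, adjusted p = 0.00047). WDR3, a scaffold protein of the processome, read 634, 787 and 567 untreated and 498, 417 and 417 treated (log2 -0.57 ± 0.13 SE, adjusted p = 0.0071). UTP4, or cirhin, of the processome module that binds the start of the precursor RNA, read 1517, 1667 and 1394 untreated and 1103, 1100.2 and 1016 treated (log2 -0.51 ± 0.10 SE, adjusted p = 0.0040).

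UTP15 and WDR43, of the same processome module as UTP4, fell by 0.44 and 0.41, and NOB1, the nuclease that makes the final cut of 18S RNA, fell by 0.35. NOP14, a processome component, just missed the threshold (log2 -0.43, adjusted p = 0.051) although its signals did not overlap, at 135, 118 and 139 untreated and 102, 89.0 and 99.7 treated. LTV1, an export factor of the pre-40S particle, read 284, 289 and 189 untreated and 191, 215 and 195 treated (log2 -0.32, adjusted p = 0.12). There the untreated N116Y array was as low as the treated ones. DDX10, a processome helicase, had the smallest change of the group, -0.08 (adjusted p = 0.69), with 352, 389.8 and 350.4 untreated and 341, 303 and 396 treated. RRP12, BYSL and UTP20, which act in small subunit assembly, had estimates from -0.33 to -0.17 and did not pass.

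For the large subunit 5 of 9 genes fell and the median was -0.47. RRS1, which brings the 5S ribonucleoprotein into the early pre-60S particle, read 631, 770.2 and 567 untreated and 342, 363 and 435 treated. It fell 1.72-fold (log2 -0.78 ± 0.14 SE, adjusted p = 0.0018). RRP1B, a nucleolar protein of pre-60S particles, read 747, 884 and 661 untreated and 467, 492 and 602 treated (log2 -0.55 ± 0.14 SE, adjusted p = 0.012). In both genes the treated N116Y array stayed highest of the 3 treated arrays.

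PES1, which forms a complex with BOP1 and WDR12 that is required for 60S maturation, read 386, 321 and 448 untreated and 309, 262 and 228 treated (log2 -0.53 ± 0.15 SE, adjusted p = 0.020), with the widest gap in the N116Y pair. NIP7, a processing factor that binds RNA, read 622, 609 and 479 untreated and 436, 439 and 360.0 treated. It fell by 0.47 (adjusted p = 0.0078), with nearly equal ratios of this probe set in the 3 pairs (-0.51, -0.47 and -0.41). Its second probe set had unequal ratios, -0.44 with LacZ, -0.18 with G12V and 0.09 with N116Y. NOP2, a methyltransferase of 28S RNA, fell by 0.48 (adjusted p = 0.013). WDR12, the partner of PES1, had an estimate of -0.29 (adjusted p = 0.070), and NOP16 and GNL2, factors of nuclear pre-60S particles, had -0.25 and -0.20.

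NOP16 shows what the choice of probe set does. The brightest probe set read 807, 959 and 835 untreated and 898, 559.5 and 770.0 treated, with a lower value in the G12V pair by 0.78 on the log2 scale and little difference in the others. A second probe set of NOP16 was lower with every vector, at -0.89, -0.88 and -0.90. The brightest POLR1C probe set had ratios of -0.34, -0.50 and -0.27, and the other one -0.80, -0.93 and -0.18. Of the 36 genes, 13 had 1 probe set and 23 had several.

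**Figure D2:**
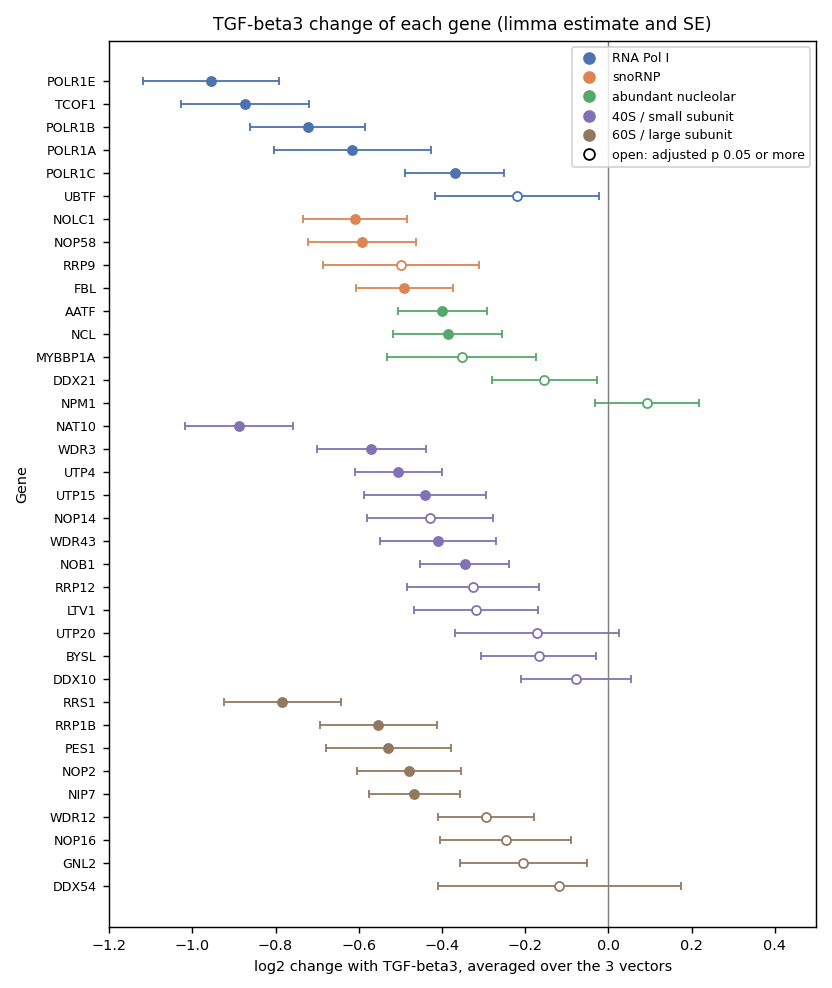
Log2 change with TGF-beta3 of each gene, averaged over the 3 vectors (x axis), with bars of 1 standard error from the limma fit of 6 arrays; colours give the role, and open points had an adjusted p of 0.05 or more. Estimates run from -0.95 for POLR1E to 0.09 for NPM1 (-0.16 under quantile normalisation), and all 21 filled points lie below 0.

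Within a vector the comparison is 1 array against 1, with no test, and a ratio of 1.5-fold was taken as apart. With LacZ, 8 of 36 genes were lower by that much and 0 higher (13% of 8873 genes were lower), and the median log2 ratio was -0.39. With HRAS G12V, 17 were lower and 1 higher, DDX54 (13.4% of 8900 genes were lower and 13.6% higher), with a median of -0.54. In the N116Y pair 7 were lower and 0 higher (12.9% of 9020 genes were lower), with a median of -0.33. TCOF1, NAT10 and POLR1E were more than 1.5-fold lower in all 3 pairs.

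The ratio was lower with G12V than with LacZ in 26 genes and lower with G12V than with N116Y in 26, against 48.7% and 49.4% of all fitted genes. G12V gave the lowest of the 3 ratios in 22 genes, N116Y in 9 and LacZ in 5; over all fitted genes the shares were 30.0%, 39.8% and 30.2%. WDR3 went from 787 to 417 with G12V (log2 ratio -0.92), against -0.35 with LacZ and -0.44 with N116Y. NOP58 had -0.94 with G12V against -0.51 and -0.32. These differences between vectors share arrays and could not be tested, since the 6 arrays leave no degrees of freedom for an interaction.

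UTP20, a scaffold protein of the processome, went the other way with LacZ, from 146 to 204 (log2 ratio 0.48) and was lower with G12V and N116Y (-0.53 and -0.47). DDX54, a helicase of 60S assembly, had the widest spread: it went from 72.5 to 50.2 with LacZ, from 54.9 to 106 with G12V and from 94.0 to 55.2 with N116Y. The log2 ratios were -0.53, 0.95 and -0.77. Its signals were near the filter of 50, and its other 2 probe sets had ratios of 0.39 and 0.35 with LacZ, -0.16 and 0.02 with G12V, and 0.00 and -0.82 with N116Y. Over the 36 genes the median spread between the highest and lowest of the 3 ratios was 0.50, against 0.41 over all fitted genes.

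**Figure D3:**
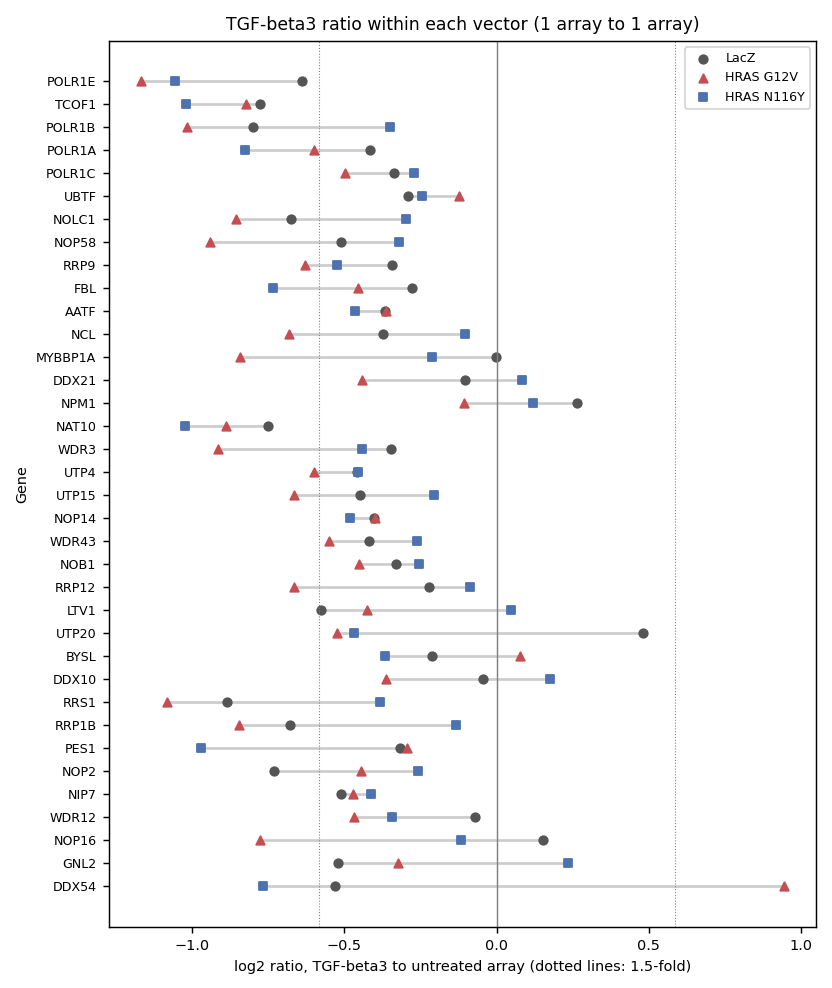
Log2 ratio of the TGF-beta3 array to the untreated array for each gene, with LacZ (circles), HRAS G12V (triangles) and HRAS N116Y (squares); a grey line joins the 3 ratios and dotted lines mark 1.5-fold. The G12V triangle is the leftmost point in 22 of 36 genes, and DDX54 stands apart with G12V at 0.95.

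No gene of the 36 passed the test between the arrays labelled HRAS G12V, the active form, and LacZ. For HRAS G12V against LacZ, averaged over both TGF-beta states, 0 genes rose and 0 fell in limma's test, against 0% and 0.0445% of all genes, and at an unadjusted p under 0.05 there was 1 in each direction. The median change was 0.01, and -0.02 when probe sets were averaged. NPM1 had the largest estimate (log2 0.39 ± 0.15 SE, adjusted p = 0.74), and POLR1C had the lowest, -0.34 ± 0.14 SE (adjusted p = 0.75). These are the 2 genes with an unadjusted p under 0.05, and neither passed after adjustment.

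The 2 states differed in sign. Untreated, the median G12V to LacZ ratio was 0.13, with 23 of 36 genes higher on the G12V array and 0 at least 1.5-fold higher or lower (2.08% and 2.26% of 8655 genes). With TGF-beta3 it was -0.13, with 22 lower, of which 2 were at least 1.5-fold lower (NOP16 and UTP20), and 1 at least 1.5-fold higher (DDX54); over 8796 genes 2.18% and 2.88% were. MYBBP1A had a ratio of 0.51 untreated and -0.33 with TGF-beta3. The difference between states was not tested.

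On the arrays labelled HRAS N116Y, the dominant negative form, 0 genes rose and 0 fell against LacZ in limma's test (1.58% and 0.846% of all genes), with a median of -0.08. At an unadjusted p under 0.05, 3 were lower and 0 higher. TCOF1 had the lowest estimate, -0.68 ± 0.19 SE (adjusted p = 0.10), then MYBBP1A, -0.57 ± 0.22 SE (adjusted p = 0.25), and NIP7, -0.32 ± 0.13 SE (adjusted p = 0.29). Without the untreated N116Y array, the remaining fit called 2 genes up and 3 down, and 8.48% and 7.99% of all genes. Of the single pairs, 1 gene was at least 1.5-fold lower untreated (LTV1; 3.32% of 8803 genes) and 3 with TGF-beta3 (TCOF1, MYBBP1A and UTP20; 6.2% of 8932 genes), and 0 were higher (5.46% and 9.67%).

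Set against each other, the arrays labelled with the active and the dominant negative form gave 0 rises and 0 falls (2.58% and 3.8% of all genes), with a median of 0.09 and, at an unadjusted p under 0.05, 4 genes higher with G12V and 0 lower. MYBBP1A had the largest estimate, 0.66 (adjusted p = 0.11), followed by TCOF1, 0.50 (adjusted p = 0.15). Untreated, 28 of 36 genes read higher on the G12V array, with a median ratio of 0.25; 2 were at least 1.5-fold higher, MYBBP1A and LTV1 (5.31% of 8844 genes), and 1 lower, DDX54 (8.18%). With TGF-beta3 the median was -0.02 (0.02 under quantile normalisation), with 3 at least 1.5-fold higher, DDX54, TCOF1 and BYSL (7.95% of 8964 genes), and 0 lower (9.96%). Leaving out an array moved the calls, among all genes too. Without the treated N116Y array 6 genes rose and 1 fell (6.94% and 6.81% of all genes), without the untreated one 2 rose and 1 fell (9.19% and 9.64%), and without the treated G12V array 1 rose and 0 fell (1.04% and 2.54%).

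Knockdown of p53 went with higher signals of these genes. Of the 34 genes at a signal of 50 on a siRNA array, 17 were at least 1.5-fold higher with p53 siRNA and 0 lower; 11.1% of 9062 genes were higher and 15.1% lower. The median log2 ratio was 0.59, against 0.02 over all genes, and 33 of the 34 ratios were above 0. These are 2 arrays and no test was possible. When a gene's probe sets were averaged, 8 of 30 genes were higher (26.7%, against 6.85% of all genes).

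By the brightest probe set 5 genes were at least 2-fold higher, against 2.35% of all genes. NAT10 read 196 with control and 461 with p53 siRNA, a ratio of 2.35, MYBBP1A 68.6 and 152 (2.22), NOP16 408 and 891 (2.19), WDR12 488 and 1056 (2.16), and RRP12, a pre-40S export factor, 109 and 233 (2.13). MYBBP1A's second probe set gave a log2 ratio of 1.11 beside 1.15, and NOP16's second gave 0.79 beside 1.13. By role, 7 of 12 small subunit genes, 5 of 9 large subunit genes, 2 of 5 abundant nucleolar genes, 2 of 5 polymerase I genes and 1 of 3 snoRNP genes were at least 1.5-fold higher.

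TCOF1 read 175 and 299, POLR1B 304 and 539, NOLC1 1155 and 2165, DDX21 1999.7 and 3606, and UTP4 1204 and 2095, all between 1.7-fold and 1.9-fold higher. Other probe sets of NOLC1 gave log2 ratios of 1.89 and 1.25, both above 2-fold. Those of POLR1B, all dimmer, gave 0.40, 0.05 and -0.08. A second probe set gave 0.75 for TCOF1, 0.93 for DDX21 and 0.83 for UTP4. FBL (1269 and 1746), NCL (3600 and 4929) and NPM1 (6688 and 8921) were higher by less than 1.5-fold. The smallest ratios were those of UBTF, the 1 gene below the control (96.5 and 72.1, log2 -0.42), DDX54 (67.1 and 74.2), LTV1 (278 and 326) and NOP58 (1316 and 1593). RRP9 and POLR1A were below 50 on both arrays.

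**Figure D4:**
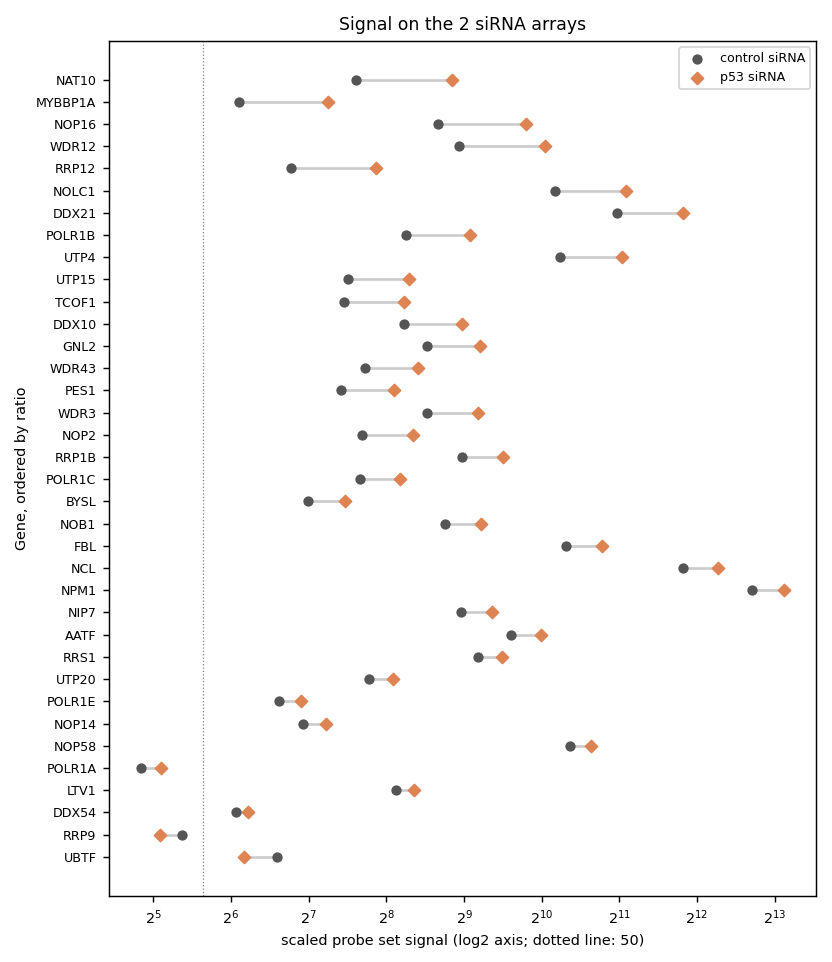
Scaled signal (x axis, log2 scale) of each of the 36 genes with control siRNA (circles) and p53 siRNA (diamonds), ordered by ratio, with a dotted line at the filter of 50. The diamond lies to the right for all genes but UBTF and RRP9, and NAT10, at the top, goes from 196 to 461.

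The genes that fell with TGF-beta3 and those that did not had equal shares in the siRNA pair: 10 of 20 and 7 of 14 were at least 1.5-fold higher, with medians of 0.59 and 0.59. Across the 34 genes, measured on different arrays in each comparison, the TGF-beta3 change and the siRNA ratio had Pearson's r = -0.15 and Spearman's rho = -0.10, given as a description over genes that share the same 8 libraries. Over all 1532 genes that fell with TGF-beta3, 13.5% were at least 1.5-fold higher with p53 siRNA.

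Other genes of the pathway were followed as whole lists, and many of them fell with TGF-beta3 too. Over all 8982 genes 17.4% fell and 16.3% rose. Of 15 other RNA polymerase I genes 6 fell and 0 rose (median -0.23), including POLR1F (log2 -0.60) and POLR2F (-0.58), both polymerase subunits, and RRN3, the initiation factor TIF-IA (-0.58). Of 11 other snoRNP genes 4 fell and 0 rose (median -0.33); NAF1, an assembly factor of box H/ACA snoRNPs, fell by 0.88, SNU13 by 0.75 and NUFIP1 by 0.59. Of 47 other small subunit genes 16 fell and 1, the kinase RIOK3, rose (median -0.28), with TSR1 at -0.93, RIOK1 at -0.64 and EMG1 at -0.62. Of 50 other large subunit genes 20 fell and 0 rose (median -0.34); NLE1, a 60S assembly factor, fell 2.37-fold, from 219, 163 and 169.9 to 86.2, 78.3 and 67.4, TMA16 by 0.99 and MRTO4 by 0.94. Of 13 exosome genes, whose complex trims the precursor RNA, 5 fell and 0 rose, led by EXOSC2 (-1.08), EXOSC9 (-0.92) and EXOSC5 (-0.76).

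The ribosomal proteins themselves did not follow the assembly factors. Of 51 measured genes of cytosolic ribosomal proteins 2 rose, RPS19 and RPS27 (log2 0.38 and 0.37), and 0 fell, with a median of 0.23 that became -0.05 under quantile normalisation. The 2 calls depend on the setting: 0 rose under quantile normalisation, with a floor of 50, with no filter, without the trend, without the vector term, and without any 1 of the LacZ or N116Y arrays. With averaged probe sets 0 rose and 1 fell, and without either G12V array 9 rose. Their probe sets are very bright (RPS19 read 7796 to 11967 on the adenovirus arrays), and many such genes have processed pseudogenes whose transcripts a probe set may also catch. Of 40 genes of mitochondrial ribosomal proteins 16 fell and 0 rose (median -0.27), with MRPS2 at -0.84, MRPL12 at -0.62 and MRPS18B at -0.56. Of 34 translation factors 5 fell (14.7%, below the 17.4% of all genes) and 0 rose, with a median of -0.04. EIF2B3 (-0.45), EIF2S1 (-0.36) and EIF3B (-0.35) were among those that fell.

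MYC read 2040, 2181 and 1673 untreated and 1468, 1239 and 1462 with TGF-beta3, a 1.41-fold fall (log2 -0.49 ± 0.13 SE, adjusted p = 0.013). The call was lost without either G12V array (log2 -0.33, adjusted p = 0.18 without the untreated and 0.17 without the treated one). MXD1, a MAX partner known to oppose MYC, read 296, 236 and 241 untreated and 551, 518 and 547 treated, and MLXIP 79.5, 93.4 and 104 untreated and 177, 209 and 243 treated; they rose 2.11-fold and 2.26-fold. The other 5 of the 8 measured genes of the MYC network did not pass. In the siRNA pair MYC went from 390 to 1455 (log2 ratio 1.90), the highest ratio of that list. Of the 8 genes of the list, 5 were at least 1.5-fold higher, against 11.1% of all genes.

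All 24 measured proliferation genes fell with TGF-beta3 (median log2 -1.38; ORC1 -1.86, BUB1B -1.83, PLK1 -1.80), while with p53 siRNA 1 was at least 1.5-fold higher, 2 lower and the median ratio was 0.00. The part of dividing cells in the change of the ribosome biogenesis genes was not tested, and fewer cells of a kind and less RNA per cell cannot be told apart. In the siRNA pair 15 of 50 other large subunit genes, 11 of 46 other small subunit genes and 3 of 11 other snoRNP genes were at least 1.5-fold higher, and 1 of 51 genes of cytosolic ribosomal proteins was. Over all 9062 genes 11.1% were higher by that much and 15.1% lower.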

How the data were processed

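Each sample's biotin-labelled RNA went onto 1 Affymetrix array of 54675 probe sets, as the labels' protocols state. The deposited values are linear signal intensities, made by the authors with MAS5 5.0 per the submitters' processing notes and found here scaled to a 2% trimmed mean of 100. The genome build was not given in the sources used here; promoter sequences are RefSeq's. Detection calls were not used here.

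Intensities were scaled again to that mean, floored at 20 and log2-transformed; the floor understates changes of dim genes. Of the probe sets, 41097 have 1 gene symbol in GEO's platform annotation, 1801 several and 11777 none here; symbols were updated through gene identifiers in RefSeq's table (41043 matched). Among a gene's single-symbol probe sets, the brightest by mean log2 signal over the 8 arrays stands for it. No columns of the 8 were identical.

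The fit used limma 3.58.1 in R 4.3.3 on the 6 adenovirus arrays (additive vector and TGF-beta3 terms, trended eBayes, 2 residual and 8.74 prior degrees of freedom) for the 8982 genes at 50 or more on at least 2 arrays. The residual also holds any interaction. Pairs of arrays are described without a test for genes at 50 or more on 1 array of the pair. As the labels name no separate cultures, p-values cover no more than the spread among these arrays, possibly technical, and precision is limited by how few arrays there are. The fit was tested on simulated data in which 200 of 8982 genes were changed. Of changes of 0.5 on the log2 scale it recovered 31% for TGF-beta3, 7.5% for each HRAS form against LacZ and 19% for G12V against N116Y. Changes of 1 were recovered in 97.5%, 93.5% (G12V), 93% (N116Y) and 87%. False calls were 22.4% of calls for G12V against N116Y at 0.5 and at most 8.78% elsewhere. Changes between vectors of about 0.5 would thus mostly be missed. With TGF-beta3 17.4% of genes fell and 16.3% rose in the data, far more than were changed in the simulation. The adjusted cut-off was therefore less strict in the data, and the 31% does not measure the sensitivity of that test. The simulated noise also held no interaction.

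Named genes were, in each role, the 3 with the largest TGF-beta3 change, the smallest, and the largest for each HRAS form; NCL, NPM1 and FBL; the 4 highest and 4 lowest siRNA ratios; the 3 widest spreads over vectors; up to 3 called genes of each list with the largest TGF-beta3 change; and MYC. Others were named after their values were seen. The members, lists and rules were chosen with earlier results of these data known. The level of the gene that the siRNA targets is not reported here.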

Additional observations from a re-analysis of the deposited data

Results flagged for a closer look

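DDX54, a helicase of 60S assembly, had opposite TGF-beta3 ratios on the arrays labelled with the 2 HRAS forms: 0.95 on the log2 scale with G12V and -0.77 with N116Y, from 1 pair of arrays apiece. The difference was not tested. Its other 2 probe sets, both near or below the filter of 50, had ratios of -0.16 and 0.02 with G12V and 0.00 and -0.82 with N116Y. With LacZ the ratio was -0.53, and that of the other 2 probe sets was 0.39 and 0.35, the opposite direction.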

How the results depend on the processing

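Limits: 1 array per group, 2 residual degrees of freedom, dim probe sets of POLR1A, RRP9, UBTF and DDX54 near the filter, and a floor that shrinks their ratios. TGF-beta3 was compared within vectors, and the fit without that term is given below; a further pairing by replicate number could not be made, as the labels carry none. Of the genes recomputed under each alternative, none that passed a test changed sign. Values near 0 did: the median of G12V against LacZ (0.01) was -0.02 with averaged probe sets, -0.04 without untreated LacZ and -0.09 without untreated G12V, and that of G12V against N116Y treated (-0.02) was 0.02 under quantile normalisation. The median of cytosolic ribosomal proteins also turned under quantile normalisation, from 0.23 to -0.05 with TGF-beta3 and from 0.19 to -0.02 in the siRNA pair. Estimates that passed in no such fit turned for DDX10, NOP16 and UTP20 (0.07, 0.02 and 0.01 without a G12V array) and DDX54 (0.09 without a LacZ and 0.21 without an N116Y array) with TGF-beta3, and for NOLC1 and DDX54 between G12V and LacZ. Of the 21 genes that fell with TGF-beta3, 12 passed in all processings of 8 that tested them, 8 in all 6 fits that left out 1 array, and 7 in both (POLR1B, POLR1E, TCOF1, FBL, NOLC1, NAT10 and RRS1); POLR1A, POLR1C, UTP15, WDR43 and NCL passed in 3 to 5 processings. Of those that did not pass, RRP9 and NOP14 did in 3 and 4. When 1 array is left out, the vector term fits its partner exactly. Both such fits of a vector therefore give the same TGF-beta3 estimate. The 6 fits thus amount to 3 separate checks, each with 1 residual degree of freedom.

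The count of 21 (17.4% of all genes fell) was 18 under quantile normalisation (17.2%) and 17 when probe sets were averaged (of 32 genes, 17.6%). It was 17 with centring on the median (15.6%), 15 with no filter (11.1%) and 14 without the vector term (11.8%). Leaving out 1 array gave 9 to 24 genes, with 13 for either LacZ array, 9 and 10 for the untreated and treated G12V arrays; the pairs gave 13 (LacZ) and 10 (G12V). Without 1 array, calls for N116Y against LacZ ranged from 0 to 2 up and 0 to 3 down, and for G12V against N116Y from 0 to 6 up and 0 to 1 down. Genes at least 1.5-fold apart in either direction numbered, with averaged probe sets, 4, 9 and 3 for TGF-beta3 with LacZ, G12V and N116Y, 1 for G12V against LacZ treated, 0 and 1 for N116Y against LacZ and 0 and 1 for G12V against N116Y (untreated and treated), and 8 for the siRNA pair. Those 8, of 30 genes, were all higher, as were 6.85% of all genes. The shares of all genes with averaged probe sets were not computed for the other pairs, so those counts have no background. At 2-fold these were 0, 3 and 3, then 1, 0 and 0, 0 and 0, and 5. At 1.5-fold, N116Y against LacZ untreated gave 2 under quantile normalisation or centring on the median and 0 with log2(signal + 16). G12V against N116Y treated gave 1 with the last.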
